A study of Mus musculus with 6 samples.

Results

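The Hox cluster genes encode homeodomain transcription factors that lie in clusters a, b, c and d, numbered by paralog group. A probe counted as a member when its gene symbol in the platform annotation was Hoxa, Hoxb, Hoxc or Hoxd followed by a number, which gave 52 of the 46632 probes on the array, for 37 of the 17711 genes with a symbol. Of these genes, 26 had 1 probe, 8 had 2, 2 had 3 and 1, Hoxa3, had 4. Expression was measured on Illumina BeadChips in lens ectoderm cut by laser from frozen sections of mouse embryos at embryonic day 9.5. The tissue label names lens or retina in prospect, so the labels alone do not tell lens from retinal tissue. The 3 wild-type samples (WT 1 to WT 3) and the 3 knockout samples (KO 1 to KO 3, labelled BMPR KO) shared a mixed C57BL6 and FVB background. In the knockouts, type I receptors of the BMP family of growth factors (bone morphogenetic proteins) had been removed in the lens placode, and the titles call the line ALK23. Which Cre driver and which deleted exons the line has, and whether wild-type embryos carried Cre, is not given in these sources. RNA was pooled, according to the series text, so the p-values reflect only how much these samples vary, some of which may be technical.

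Hox genes are switched on in the order in which they lie along their clusters, low paralog numbers first and furthest forward, high numbers last and towards the tail. Their front limits lie in the hindbrain and behind it, and forebrain, midbrain and the ectoderm over the optic vesicle are known as territory without Hox expression. The comparison therefore asks whether lens ectoderm carried a head identity without Hox transcripts, whether RNA of hindbrain, trunk or blood was present, and whether loss of BMP receptors changed any Hox gene that was detected.

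Across the arrays, 39.6% to 45.7% of all probes were detected, meaning a detection p-value below 0.05 against the negative control probes of the same array. Transcripts of the dissected tissue were present. Of 20 probes for lens ectoderm genes, 16 to 19 were detected per array, although the probe of the crystallin gene Cryaa was detected on no array and those of Foxe3 and Pitx3 on 2 each. The summed normalized signal of the 8 tested lens genes was 4401, 12906 and 5751 in WT and 4179, 10387 and 9657 in KO, so that WT 2, KO 2 and KO 3 stood above the other arrays of both genotypes. The part of this spread in the Hox values was not tested. The deleted receptors did not separate the genotypes. The tested probe of Acvr1 (ALK2) had normalized log2 intensities from 6.63 to 8.73 in WT and from 6.49 to 7.51 in KO. Its difference, KO minus WT, was -0.74 (limma adjusted p = 0.989). The 2 probes of Bmpr1a (ALK3) differed by -0.09 and 0.12 (limma adjusted p = 0.993 and 0.989). How these probes lie relative to the deleted exons is unknown here, so they do not check the labels.

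Few Hox probes were detected. Of the 52 probes, 6 were detected on WT 1, where 41.3% of all probes were, 8 on WT 2 (39.6% of all), 9 on WT 3 (44.7% of all), 6 on KO 1 (45.7% of all), 6 on KO 2 (43% of all) and 6 on KO 3 (45% of all). The Hox shares were thus between 11.5% and 17.3%. The threshold itself lets through about 5% of probes that match nothing, and a family with no known role in this tissue gives a second reference. Among 1317 probes of olfactory, vomeronasal and trace amine receptors, 5.16% (KO 3) to 12.2% (KO 1) were detected. On KO 1 the Hox share of 11.5% was below that of the receptors, and on every other array the Hox share was above it. Over all arrays, 41 of 312 pairs of Hox probe and array were detected (13.1%), compared with 8.06% of the receptor pairs and 43.2% of all pairs. In such tissue, fewer cells of a type and less RNA per cell cannot be told apart.

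**Figure D1:**
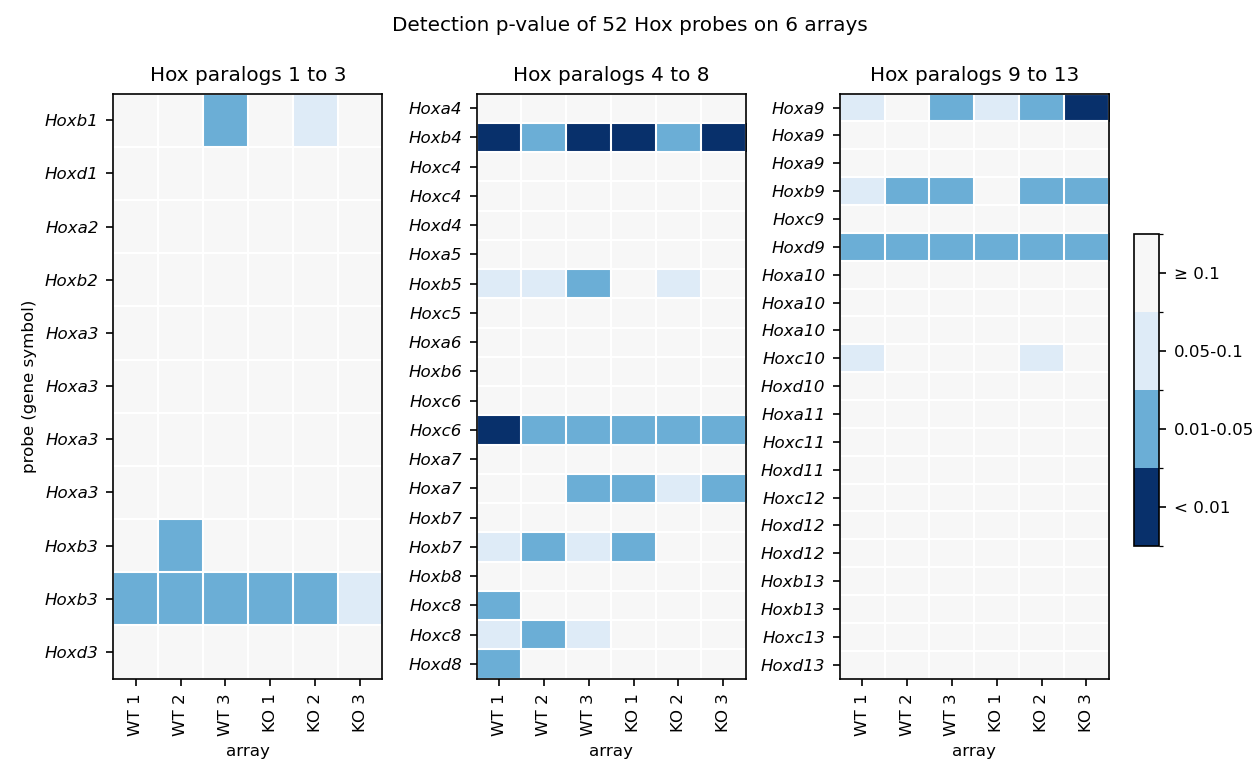
Detection p-value of each of the 52 Hox probes (rows, ordered by paralog group) on each of the 6 arrays (columns), in 4 classes from below 0.01 (dark) to 0.1 and above (pale). Hoxb4 stands out on all 6 arrays, and no probe of paralogs 10 to 13 reached a p below 0.05.

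Most Hox genes were detected nowhere. For 25 of the 37 genes, no probe was detected on any array. These were Hoxd1, Hoxa2, Hoxb2, Hoxa3 and Hoxd3 of paralogs 1 to 3. From paralogs 4 to 8 they were Hoxa4, Hoxc4, Hoxd4, Hoxa5, Hoxc5, Hoxa6, Hoxb6 and Hoxb8. From paralogs 9 to 13 they were Hoxc9, Hoxa10, Hoxc10, Hoxd10, Hoxa11, Hoxc11, Hoxd11, Hoxc12, Hoxd12, Hoxb13, Hoxc13 and Hoxd13. By probe, 38 of 52 were never detected (73.1%), compared with 41.4% of all probes and 83% of the receptor probes. A probe that is not detected bounds its transcript at this sensitivity and does not show that it is absent.

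By paralog group the counts were as follows, with no test. Paralogs 1 to 3, whose genes pattern the hindbrain and the pharyngeal arches, were detected in 7 of 66 pairs of probe and array (10.6%). Paralogs 4 to 8, of the posterior hindbrain, neck and thorax, were detected in 21 of 120 pairs (17.5%), of which the Hoxb4 and Hoxc6 probes gave 6 each, and paralogs 9 to 13, of lower trunk, tail and limbs, in 13 of 126 (10.3%). All 13 of the last belonged to paralog 9. For paralogs 10 to 13, a grouping chosen after the values were seen, 0 of 90 pairs were detected over 15 probes of 11 genes. The anterior genes of the hindbrain rhombomeres were near the background too. Neither Hoxa2, which specifies the second pharyngeal arch, nor Hoxb2 was detected on any array, and Hoxb1, a gene of the hindbrain rhombomeres, was detected on WT 3 alone, with a detection p-value of 0.0368.

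By cluster, the share was highest in cluster b (chromosome 11), with 20 of 78 pairs detected (25.6%) and 7 of 13 probes detected at least once. Cluster c (chromosome 15) had 8 of 72 (11.1%), cluster d (chromosome 2) 7 of 60 (11.7%) and cluster a (chromosome 6) 6 of 102 (5.88%). Of the 20 pairs in cluster b, 6 came from the Hoxb4 probe. Of the 10 cluster b genes, only Hoxb2, Hoxb6, Hoxb8 and Hoxb13 were never detected.

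Hoxb4 was the Hox gene with the firmest detection. It belongs to paralog group 4, has its front limit in the posterior hindbrain and is also known from blood stem cells. The intensity of its probe (ILMN_1241077) was 188, 177 and 247 on WT 1 to WT 3 and 212, 178 and 333 on KO 1 to KO 3, with bead standard errors from 8.73 to 16.6 and 31 to 40 beads behind each value. The lowest intensity of any detected probe was between 92.6 and 106 on these arrays. Each array lay above that line by at least 9.01 bead standard errors, and KO 3 and WT 3 were the highest. The detection p-value was 0.00873 (WT 1), 0.0112 (WT 2), 0.00374 (WT 3), 0.00873 (KO 1), 0.0106 (KO 2) and 0.00187 (KO 3). On no array was the Hoxb4 probe above every negative control. The annotation gave Hoxb4 no second probe.

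To show what the detected and undetected members carry at their start sites, 3 promoters are given from RefSeq (build GRCm38.p6, windows of 300 bases that end shortly after the start, 5′ to 3′, plus strand). They are Hoxb4 (chr11:96318017-96318316), Hoxd9 (chr2:74697513-74697812), which was detected on 6 arrays close to the threshold, and Hoxd13 (chr2:74667975-74668274), which was detected on none. Capitals mark CCAAT, the box bound by NF-Y, and CACGTG, an E-box, on either strand, with no overlap between them.
Hoxb4: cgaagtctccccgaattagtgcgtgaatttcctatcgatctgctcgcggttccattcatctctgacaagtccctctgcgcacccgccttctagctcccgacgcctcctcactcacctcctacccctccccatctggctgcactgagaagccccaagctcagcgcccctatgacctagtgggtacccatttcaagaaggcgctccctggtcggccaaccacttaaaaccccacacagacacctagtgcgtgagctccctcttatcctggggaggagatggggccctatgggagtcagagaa
Hoxd9: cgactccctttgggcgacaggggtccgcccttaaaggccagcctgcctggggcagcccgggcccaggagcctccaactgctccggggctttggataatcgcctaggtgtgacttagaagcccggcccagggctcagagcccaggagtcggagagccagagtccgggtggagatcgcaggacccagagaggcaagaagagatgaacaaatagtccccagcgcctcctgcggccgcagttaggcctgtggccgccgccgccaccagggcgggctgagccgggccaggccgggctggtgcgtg
Hoxd13: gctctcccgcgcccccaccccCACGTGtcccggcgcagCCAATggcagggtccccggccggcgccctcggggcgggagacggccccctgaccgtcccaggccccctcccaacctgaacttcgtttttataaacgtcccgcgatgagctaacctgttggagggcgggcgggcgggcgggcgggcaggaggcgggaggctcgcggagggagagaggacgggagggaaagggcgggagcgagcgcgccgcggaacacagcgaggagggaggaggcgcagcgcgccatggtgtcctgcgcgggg

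The table held 23 promoters for 21 of the 37 genes. CCAAT was found on either strand in 14 of these 23 (60.9%) and CACGTG in 5 (21.7%), compared with 37.4% and 7.15% of all 32851 promoters of the same length. The 4 promoters of genes that were detected on at least 3 arrays (Hoxb4, Hoxa7, Hoxa9 and Hoxd9) held neither motif. Of 17 promoters of never-detected genes, 12 held CCAAT, as did those of Hoxb1 and Hoxd8, each detected on 1 array. A match is a description of letters and no evidence of binding, and 4 promoters are too few to compare. Hox promoters had a median of 14 CpG pairs (from 4 to 37), with a median of 7 over all promoters. Hoxd13 had 37, Hoxd9 20 and Hoxb4 14.

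Hoxc6 and Hoxd9 were also detected on all 6 arrays, nearer to the threshold. Detected throughout were thus 3 of the 52 Hox probes (5.77%), compared with 29.6% of all probes and 2.96% of the receptor probes. Hoxc6, a gene of thoracic segments, had intensities of 188, 109 and 99.1 in WT and 122, 142 and 106 in KO on probe ILMN_2703668. WT 1 was the highest, and on WT 3 the value was 0.79 bead standard errors above the lowest detected intensity. The second Hoxc6 probe, ILMN_1217328, was detected on no array, with its lowest detection p at 0.475. Hoxd9, of lower trunk and limb, had 116, 103 and 97.6 in WT and 103, 107 and 101 in KO, with detection p-values between 0.0356 and 0.043. These were flat across the arrays and within 0.569 to 2.52 bead standard errors of the lowest detected intensity.

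Hoxb3, the neighbour of Hoxb4 and a gene of the posterior hindbrain, was detected on 5 arrays. Its probe ILMN_2450689 had 119, 114 and 104 in WT and 115, 96.2 and 89.7 in KO, and KO 3 was not detected. A second Hoxb3 probe, ILMN_1232276, was detected on WT 2 alone. Hoxb9, which helps to pattern the ribs, had 102, 104 and 102 in WT and 78.4, 97.5 and 113 in KO and was detected on 4 arrays. WT 1 and KO 1 were below the threshold for Hoxb9, so detection did not follow genotype.

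Hoxa7 and Hoxa9 were each detected on 1 WT and 2 KO arrays. Hoxa7, a thoracic gene, had intensities of 79.0, 69.9 and 98.1 in WT and 128, 89.0 and 105 in KO on probe ILMN_2621038, and its other probe was detected on no array. For Hoxa9, a gene of the lower trunk that is also active in blood progenitors, probe ILMN_1258462 had 94.0, 67.0 and 111 in WT and 82.7, 114 and 186 in KO. KO 3 was the highest, at 10.8 bead standard errors above the lowest detected intensity, with a detection p-value of 0.00998. The 2 other Hoxa9 probes were detected on no array.

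**Figure D2:**
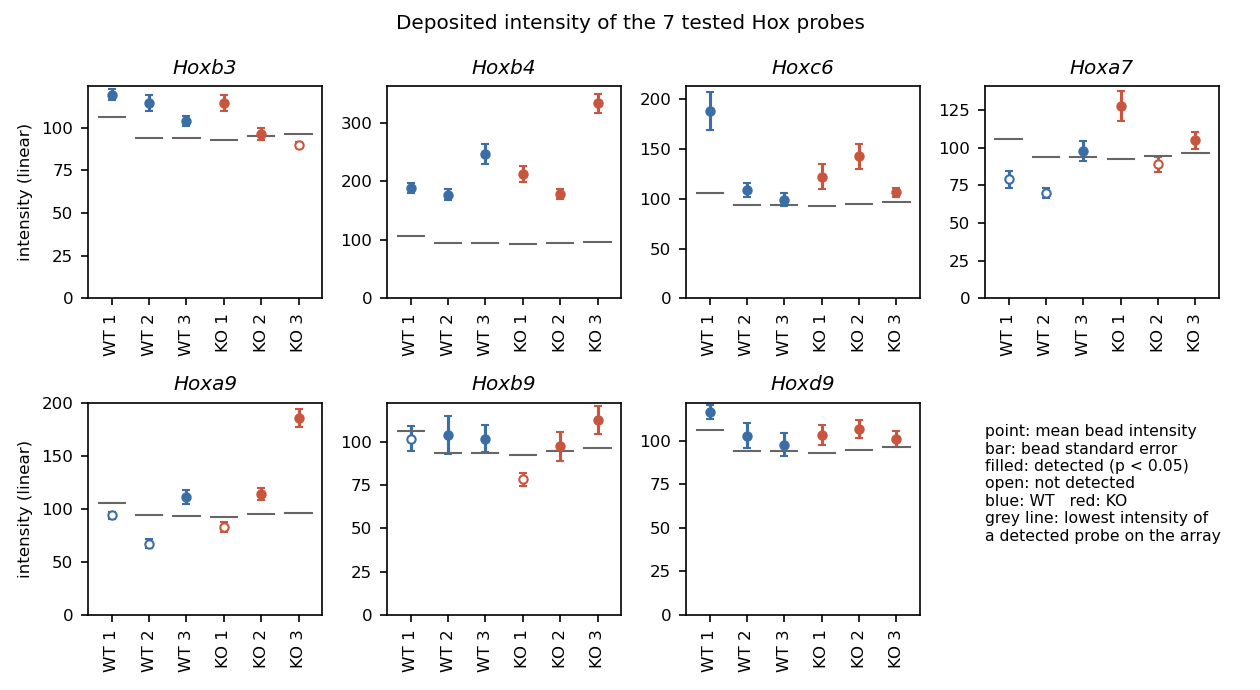
Deposited linear intensity of the 7 Hox probes detected on at least 3 arrays, by array, with the standard error over beads. Filled points were detected, and the grey line is the lowest intensity of a detected probe on that array; Hoxb4 lies well above it on all 6 arrays, and Hoxd9 close to it on all 6.

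Further genes, Hoxb1, Hoxb5, Hoxb7, Hoxc8 and Hoxd8, reached the threshold on 1 or 2 arrays. Hoxb7 was detected on WT 2 and KO 1 by 1 of its 2 probes. Hoxb1 and Hoxb5 were detected on WT 3 and Hoxd8 on WT 1, and the 2 probes of Hoxc8 were detected on 1 array each, ILMN_1213675 on WT 1 and ILMN_2671465 on WT 2. Of 6 genes with several probes and any detection, Hoxb3 and Hoxc8 had every probe detected at least once, and none had more than 1 probe detected on 3 arrays or more. Of the 41 detected values, 16 lay within 2 bead standard errors above the lowest detected intensity, and 25 had a detection p between 0.03 and 0.05. A p below 0.01 was reached by 6 values (1.92% of Hox pairs), compared with 26.6% of all pairs and 1.09% of receptor pairs. Of these 6, 4 belonged to Hoxb4 and 1 each to Hoxc6 and Hoxa9. On 3 or more arrays, 1 of 52 Hox probes, 15 of 1317 receptor probes and 12735 of all 46632 probes reached a p below 0.01.

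Below the threshold, probes kept part of their order between arrays. Over the 38 never-detected Hox probes, the rank correlation of intensities between 2 arrays ran from 0.54 to 0.83 over 15 pairs of arrays, with a median of 0.68. The points share the probe sequences and the slide, so this is a description of how far the signal of a probe repeats without detection. For Hoxd9, with nearly the same intensity on every array, a repeated probe signal and a low transcript level cannot be told apart from these values.

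The 2 probes of Hoxd3os1, a transcript antisense to Hoxd3, were detected on no array, and their lowest detection p-value was 0.226. Of the homeobox relatives of the clusters, the list of Evx1, Evx2, Gsx1, Gsx2 and Pdx1 gave 2 detections in 36 pairs (5.56%), both from Pdx1. The Cdx genes, which are also ParaHox genes, were counted with the regulators of the clusters. In contrast, genes that flank the Hox clusters on the chromosome had 15 to 20 of 27 probes detected per array (68.5% of pairs). Skap2 and Hnrnpa1 were detected on all 6 arrays, while Mtx2 was detected on 2, Nfe2 on 1 and Ttll6 on none.

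**Figure D3:**
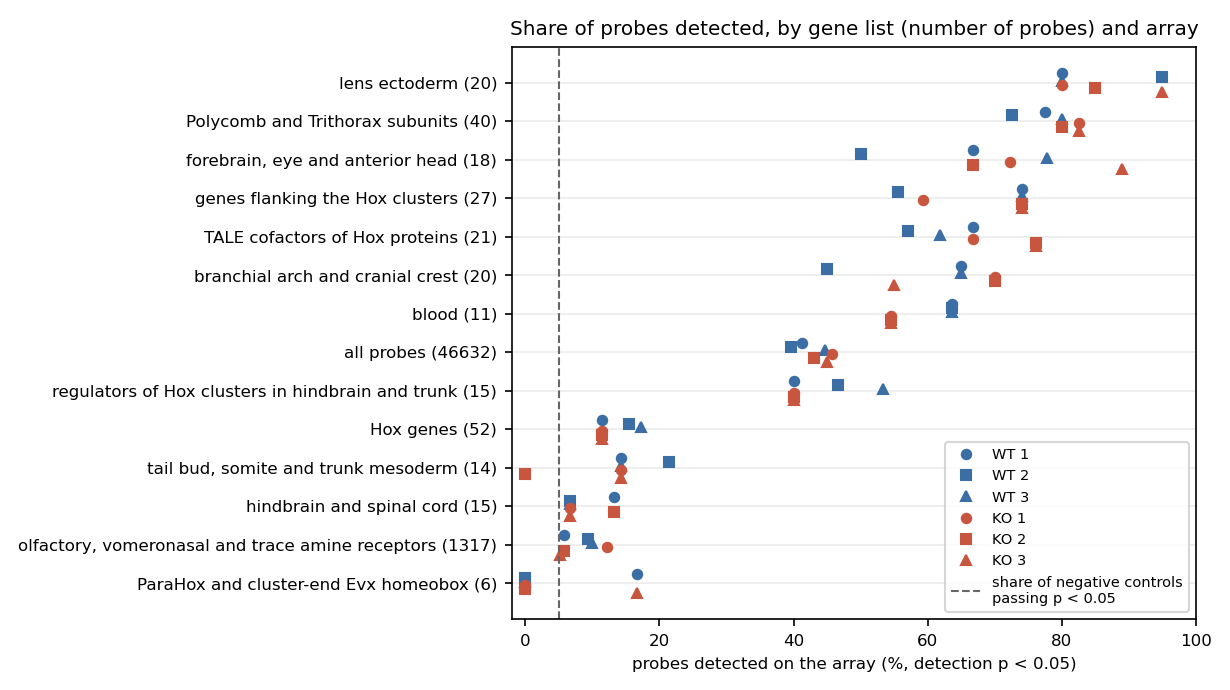
Share of probes detected on each array (percent, detection p below 0.05) for each gene list, with the number of probes in parentheses. Points are single arrays, blue for WT and red for KO, and the dashed line marks the 5% of negative controls that pass. The 52 Hox probes lie between 11.5% and 17.3%, below the share of all probes. They lie above the share of chemosensory receptors on every array but KO 1. Their range overlaps those of the lists for hindbrain (6.67% to 13.3%) and trunk mesoderm (0% to 21.4%).

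Marker genes of position in the embryo were counted in the same way. Of 18 probes for genes of forebrain, eye and anterior head, 9 to 16 were detected per array (70.4% of pairs). Otx1 and all 3 Pax6 probes were detected on all 6 arrays. Emx2 and Lhx2 were detected on 4 each, and Hesx1, Vax2 and the Rax probes ILMN_1235430 and ILMN_2444522 on 1 each. The Pax6 and Six3 probes are also counted in the lens list, so these lists are not independent. Of 15 probes for hindbrain and spinal cord, 1 or 2 were detected per array (8.89% of pairs). Isl1, a LIM homeobox gene that is also active in cranial ganglia, was the 1 gene detected on all arrays. Egr2, a gene of the rhombomeres, was detected on KO 2 and Mnx1, a motor neuron gene, on WT 1, while Olig2, Nkx2-2, Nkx6-1, Lbx1, Lhx1, Lhx5, Phox2a and Tlx3 were detected on none. Of 14 probes for tail bud, somite and trunk mesoderm, 0 to 3 were detected per array, and the share of pairs, 13.1%, was that of the Hox probes. A probe of Pax1 was detected on 3 arrays, Msgn1, Tcf15 and 1 Uncx probe on 2 each, and Myf5 and the other Uncx probe on 1 each. Tbx6, Meox1, Meox2, Pax9 and Tbx18 were detected on none.

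Genes listed for neighbouring tissues were detected, and from which cells their RNA came was not tested. Of 20 probes for branchial arch and cranial crest, 9 to 14 were detected per array, with Prrx2 and Twist1 on all 6, while Sox10, Foxd3 and Hand2 were detected on none. Of 11 blood probes, 6 or 7 were detected per array, with the embryonic globin gene Hba-x on all 6 and Gata1 and Lyl1 on none. The summed normalized signal of the 6 tested blood genes was 5218 to 11538 in WT and 5740 to 10225 in KO. Array by array it was 11538, 8231 and 5218 in WT and 10225, 6599 and 5740 in KO, where Hoxb4 had a normalized log2 intensity of 6.95, 7.16 and 7.65 in WT and 7.23, 6.91 and 7.89 in KO. The 9 tested crest genes summed to 3429, 2299 and 3595 in WT and 3508, 2653 and 2952 in KO. WT 2, KO 2 and KO 3, the arrays with the highest lens sums, thus had the lowest crest sums. The part of blood and crest RNA in the Hox values was not tested beyond these levels.

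Genes that act with Hox proteins or on the clusters were detected at or above the share of all pairs, 43.2%. TALE cofactors, the Meis, Pbx and Pknox proteins that bind DNA together with Hox proteins and also act without them, had 12 to 16 of 21 probes detected per array (67.5% of pairs), with all 4 Meis1 probes on all 6 arrays. Of 40 probes for Polycomb and Trithorax subunits, which keep clusters silent or active, 29 to 33 were detected (79.2% of pairs), among them Ezh2, Suz12 and Rnf2 on all 6 arrays. Of 15 probes for regulators of the clusters in hindbrain and trunk, 6 to 8 were detected (43.3% of pairs). Cyp26b1, a retinoic acid degrading enzyme, was among those on all 6 arrays, while Aldh1a2, which makes retinoic acid, was detected on none. Of the caudal genes of the trunk, Cdx2 was detected on 3 arrays (2 WT and 1 KO), and Cdx1 and Cdx4 on none.

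The Hox genes that could be tested did not differ detectably between KO and WT. A probe entered the fit if it was detected on 3 or more arrays, as were 7 of the 52 Hox probes and 44.9% of all probes. In the limma fit over all 20959 tested probes, 0 of the 7 had an adjusted p below 0.05, where 0% of all tested probes did. At an unadjusted p below 0.05 there were 0 of 7, compared with 4.49% of all, and for 0 of 7 did the groups fail to overlap, compared with 9.82% of all. The KO mean was above the WT mean for 3 of the 7 (50.9% of all tested probes) and below it for 4. Their median log2 fold change was -0.11, and the median over all tested probes was 0.01.

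Hoxb4 had a normalized log2 intensity of 7.25 ± 0.36 in WT and 7.34 ± 0.50 in KO (SD, n = 3). The log2 fold change was 0.09, and its 95% interval reached from -0.95 to 1.13 (limma adjusted p = 0.995). The sign of this difference turned without WT 1 (-0.06) and without KO 3 (-0.18). For Hoxc6 the means were 6.27 ± 0.62 and 6.09 ± 0.34 (SD, n = 3). The log2 fold change was -0.19, its interval reached from -1.08 to 0.71 (limma adjusted p = 0.992), and leaving out WT 1 gave 0.15. With all arrays, the largest difference was that of Hoxa9, at 0.45 (-0.34 to 1.23, limma adjusted p = 0.989). It was 0.11 without KO 3, below the 0.36 of Hoxa7 there, and 0.75 without KO 1. Normalized log2 intensities of 5.51 to 6.76 in KO and 5.40 to 5.95 in WT overlapped.

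The other 4 genes had intervals within a 2-fold change either way, as 40.7% of all tested probes did. The log2 fold change was -0.27 for Hoxb3 (interval -0.81 to 0.27), 0.33 for Hoxa7 (-0.16 to 0.82), -0.16 for Hoxb9 (-0.65 to 0.33) and -0.11 for Hoxd9 (-0.60 to 0.38). On the authors' processed values Hoxa7 was 0.88, and it was 0.18 without KO 1. Without WT 2, Hoxb3 was -0.16 and Hoxd9 -0.047, and without KO 1, Hoxb9 was -0.048. For values this close to the floor the interval bounds the signal and not the transcript, since the offset compresses differences there. The remaining Hox genes did not enter this fit. With no filter, 2 of the 52 Hox probes had an unadjusted p below 0.05 (limma), compared with 4.21% of all probes.

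**Figure D4:**
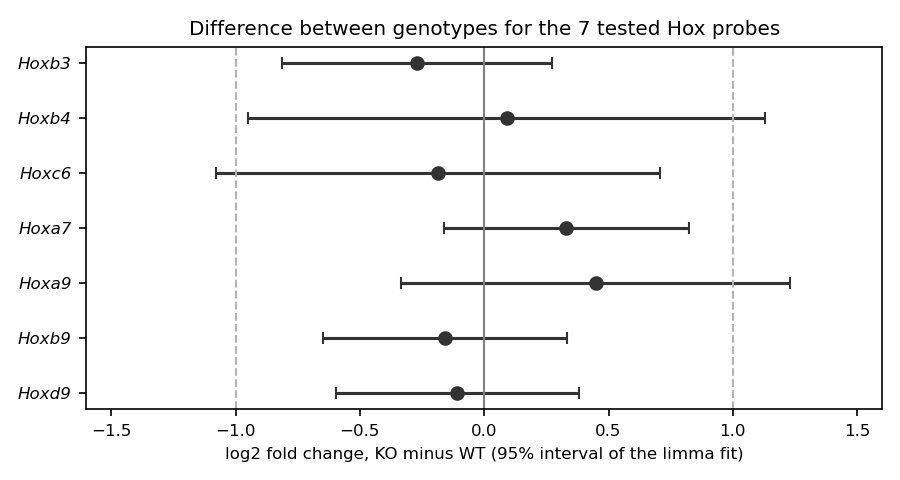
Log2 fold change (KO minus WT) of the 7 tested Hox probes, with the 95% interval of the limma fit over 3 arrays per genotype. Dashed lines mark a 2-fold change, and every interval includes 0.

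Genes around the Hox system likewise had 0 members past the adjusted threshold in each list below (limma). Of the regulators of Hox clusters, 6 of 15 were tested (2 higher and 4 lower in KO, median -0.05). Gbx2, a homeobox gene of the anterior hindbrain, had the largest difference, with WT arrays from 6.42 to 6.94 and KO arrays from 5.42 to 5.89. Its log2 fold change was -1.001 (-1.69 to -0.31, limma adjusted p = 0.989). Detection held for 3 arrays of WT and 1 of KO, so WT alone brought Gbx2 into the fit, and the groups did not overlap, as for 9.82% of all tested probes. Rarb, a retinoic acid receptor gene, had 0.36 (interval -1.26 to 1.98), and leaving out WT 2 or KO 1 turned its sign (-0.33 and -0.10). Its other tested probe, ILMN_2617194, was detected on all 6 arrays and gave -0.008, and ILMN_1243882 was detected on none.

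Of the TALE cofactors, 5 of 9 were tested (2 higher, 3 lower, median -0.01). Pknox2 had 0.95 (interval -0.57 to 2.46), with 0.77 from its other tested probe, and Pbx3 had -0.26 (-1.24 to 0.71). For Polycomb and Trithorax subunits, 20 of 26 were tested (9 higher, 11 lower, median -0.02), with Phc3, a Polycomb subunit, at 1.34 (-0.34 to 3.01) and Kdm6a, an H3K27 demethylase, at 0.79 (-0.43 to 2.01). The other Kdm6a probes gave 0.54, 0.46 and -0.77, so they differed in sign, and the other Phc3 probe was detected on no array. Without WT 2 the difference was 0.37 for Phc3 and 0.16 for Kdm6a, and without WT 1 that of Pknox2 was 0.28. Pbx3 was -0.09 without KO 2 and -0.58 without KO 1. Among 12 of 18 tested genes flanking the clusters (6 higher, 6 lower, median 0.02), Jazf1 had 0.82 (-0.30 to 1.93). Cbx5, a heterochromatin protein gene, had 0.58 (0.03 to 1.13, limma adjusted p = 0.989), with 0.17 and 0.07 from its other probes. The tested probes of Lnpk differed in sign, with -0.34 from the brightest and 0.92 and 0.72 from the others.

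In the position and tissue lists, 9 of 14 genes of forebrain, eye and anterior head were tested (4 higher, 5 lower, median -0.18). Six3, an eye field factor, had -0.66 (interval -2.09 to 0.78), with -1.16 from its second probe. Six3 was -0.12 without KO 1 and -0.19 without WT 2. Emx2, a forebrain factor, had -0.57 (-2.33 to 1.19), which was 0.02 without WT 1 and -1.27 without WT 2. Of the hindbrain list Isl1 alone was tested, at 0.09 (-1.20 to 1.38), and it turned to -0.14 without WT 1, -0.17 without WT 3 and -0.27 without KO 3. Of the trunk list Pax1, a sclerotome gene, was the 1 tested gene, at -0.52 (-1.50 to 0.47), which was -0.20 without WT 2 and -0.94 without WT 3. For 8 of 11 lens ectoderm genes the median was 0.17 (6 higher, 2 lower), and Sox2 had 0.44 (-0.71 to 1.59), which was -0.08 without WT 1.

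The 9 tested crest genes of 14 (4 higher, 5 lower) had a median of -0.19. Dlx2, a homeobox gene of the arches and forebrain, was detected on 2 WT and 3 KO arrays, with WT values from 5.43 to 6.99 and KO values from 7.48 to 7.92. The groups did not overlap, as for 9.82% of all tested probes, and the 3 KO arrays alone met the filter. For Dlx2 the log2 fold change was 1.54 (0.39 to 2.70, limma adjusted p = 0.989), and its second probe was detected on no array. Col3a1, a collagen gene, had -1.09 (-3.05 to 0.87). Of 6 tested blood genes of 11, 5 had a lower mean in KO (median -0.37), with Tal1, a blood regulator, at -1.15 (-2.79 to 0.50) and at -0.59 without WT 1. The erythroid factor gene Klf1 was detected on 3 WT and 0 KO arrays, with normalized log2 intensities from 5.86 to 7.54 in WT and from 5.43 to 5.62, not above background, in KO. It entered the fit through WT alone, and the groups did not overlap, as for 9.82% of all tested probes. The Klf1 difference of -1.08 was -0.62 without WT 1.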

How the data were processed

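Per the file headers, the deposited table gave intensity (mean over beads), number of beads, bead standard error and detection p-value of each of 46632 probes on 6 arrays. GenomeStudio is named, without its version, per the submitters' processing notes. Deposited intensities were on a linear scale with no value below 0, and steps of the deposited detection p-value correspond to 1603 negative controls. The median bead number was 35 or 36, and bead errors cover technical error of 1 array only. A second deposited table of processed intensity values, with values below 0 and an unstated method, was used as an alternative (rank correlation 1 with each array, column medians 18.53, 18.54, 18.54, 18.53, 18.51 and 18.54 for WT 1 to WT 3 and KO 1 to KO 3). Genome build and annotation are not given in the sources used here.

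Symbols came from the platform annotation (29976 probes with 1 symbol, 10 with several, 16646 unnamed). The 37 Hox symbols matched the current gene table. Per the labels' protocols, sections were 10 microns thick and 15 ng of RNA was amplified. Intensities were corrected by normexp with inferred negative controls (offset 16), then quantile normalized and log2 transformed (neqc, limma 3.58.1, R 4.3.3). KO minus WT was fitted with lmFit and eBayes with a variance trend, without covariates, two-sided, with Benjamini-Hochberg adjustment over 20959 probes and a threshold of 0.05, and the fit was tested on simulated data. Named genes were each Hox gene by its number of arrays and, per list, the 2 tested genes with the largest difference, a gene being its brightest tested probe. The Hox genes and all lists were chosen with earlier results of these data known, and detection counts were given no test. Alternatives covered background, offset, scaling, filter, array weights, moderation, the replicate number and each array left out.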

Additional observations from a re-analysis of the deposited data

How the results depend on the processing

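Detection depended most on its threshold: 7 Hox probes were detected on at least 3 arrays at p below 0.05, 1 (Hoxb4) at p below 0.01 and 0 when above every negative control. With each array left out in turn and detection on 3 or more of the remaining 5 arrays, the count was 5 to 7. Under 16 alternatives to the fit, 0 Hox probes and 0 of all tested probes had an adjusted p below 0.05, and the lowest adjusted p among 108 Hox values was 0.769. At an unadjusted p below 0.05, between 576 and 1961 probes were counted over these alternatives. The median Hox log2 fold change stayed between -0.19 and -0.05. The sign turned in 3 Hox values and 7 others, each by leaving out 1 array. Over the arrays left out, the log2 fold change ran from -0.18 to 0.31 for Hoxb4, -0.45 to 0.15 for Hoxc6, -0.33 to 0.87 for Rarb, -1.27 to 0.017 for Emx2, -0.27 to 0.56 for Isl1 and -0.078 to 0.91 for Sox2. Without WT 1 the log2 fold change was -0.06 for Hoxb4, 0.15 for Hoxc6, 0.017 for Emx2, -0.14 for Isl1 and -0.078 for Sox2. Without WT 2 it was -0.33 for Rarb, without WT 3 -0.17 for Isl1, without KO 1 -0.10 for Rarb, and without KO 3 -0.18 for Hoxb4 and -0.27 for Isl1; the cause was not tested. Same-numbered samples did not deviate together throughout (correlations 0.11, 0.14 and -0.01), so numbers were not taken as pairs, and the replicate block gave 0 calls and a median Hox log2 fold change of -0.11. Signal over background limits the Hox values, least so for Hoxb4.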
